A study of Mus musculus with 53 samples.

Results

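Malat1, Neat1, H19, Meg3, Rian and Mirg are long noncoding RNAs that are known for acting in the nucleus or for being expressed from 1 parental allele. They were chosen by name from a list of 7, and 6 of the 7 had a row among the 34306 genes of the table. Kcnq1ot1, the antisense transcript of the Kcnq1 domain, had none and is not analysed here. The RNA came from hearts of adult mice and was read in 12 libraries. Input is total cytoplasmic RNA, and TRAP (translating ribosome affinity purification) is the RNA that comes down with ribosomes when these are pulled out by a tag that Cre recombinase has switched on.

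The CAG line has tagged ribosomes in every lineage and the Tie2 line in endothelial cells, going by labels of an earlier deposit of the same series. CAG hearts gave 2 input and 2 TRAP libraries after sham surgery and 2 of each after banding, a ligature on the ascending aorta tied against a needle in male mice. CAG hearts and Tie2 hearts without surgery gave 1 input and 1 TRAP library each. The sham operation differed from banding only in leaving the aorta untied. The tag is thus shared by input and TRAP libraries of a line, and no untagged heart was analysed here. RNA was pooled before library preparation, and how many mice stand behind a library is unknown here.

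Malat1 is an abundant, mostly unspliced transcript that collects in nuclear speckles, where splicing factors are stored. Neat1 is the scaffold around which paraspeckles form, bodies built from RNA-binding proteins such as Nono and Sfpq. H19 is expressed from the maternal allele, shares enhancers with its neighbour Igf2, which is expressed from the paternal allele, and holds the precursor of miR-675. Meg3, Rian and Mirg lie in a row in the Dlk1-Dio3 domain, are expressed from the maternal allele and are thought to be made from 1 long transcription unit that begins at the Meg3 promoter. Rian is a host of small nucleolar RNAs, and Mirg is a host of a microRNA cluster. None of them is known chiefly as a template for protein, and TRAP measures which RNAs come down with ribosomes.

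The promoter of Meg3 is shown because Meg3, Rian and Mirg are thought to share it. It is taken from RefSeq (build GRCm38.p6) at chr12:109540746-109541045 on the plus strand and runs from 250 bases before to 50 bases after the annotated start. Capitals mark a cAMP response element, TGACGTCA, and TTTATATAAA, the joined stretch of the TATA box TATAAA and its match TTTATA on the other strand.

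Meg3 promoter: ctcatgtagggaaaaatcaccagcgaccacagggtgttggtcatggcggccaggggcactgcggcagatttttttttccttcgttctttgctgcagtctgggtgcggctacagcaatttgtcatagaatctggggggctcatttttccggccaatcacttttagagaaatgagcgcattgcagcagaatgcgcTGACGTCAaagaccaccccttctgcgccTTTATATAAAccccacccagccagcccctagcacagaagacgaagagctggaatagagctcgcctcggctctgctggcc

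Searched on both strands, TGACGTCA occurred in 1.79% of 32851 RefSeq mouse promoters of this length, and TATAAA in 13.6%. Neither motif was found in the windows at the annotated starts of Rian and Mirg or at a second start of Meg3. RefSeq entries for this window were found for Malat1, Meg3, Rian, Mirg and Kcnq1ot1.

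MicroRNAs that lie within H19, Meg3 and Mirg are shown because these hosts are named for them or studied through them. Their mature sequences are from RefSeq (GRCm38.p6), with bases 2 to 8, the seed, in capitals. The first pair comes from H19 (chromosome 7, minus strand, named here by position 5′ to 3′), the next from Meg3 and the last from Mirg (both on chromosome 12, plus strand).

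Mir675, 5′ arm: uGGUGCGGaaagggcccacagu
Mir675, 3′ arm: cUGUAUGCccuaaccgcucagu
Mir770, 5′ arm: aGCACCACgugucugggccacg
Mir770, 3′ arm: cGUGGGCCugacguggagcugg
Mir410, 5′ arm: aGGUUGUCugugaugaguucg
Mir410, 3′ arm: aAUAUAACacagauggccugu

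The 6 seeds differ from each other. The rows of Mir675, Mir770 and Mir410 held 0 reads over the 12 libraries. Of all hosted microRNA genes with a row, 1 of 1 in H19, 2 of 2 in Meg3 and 8 of 8 in Mirg held 0 reads, and of 3 in Rian 1 held a read. The 2 small nucleolar RNA genes of Rian with a row held 0 reads. Libraries were made from poly(A)-selected RNA, so the hosted small RNAs themselves were not measured.

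Values below are RPKM, reads scaled by the length of the transcript and by the reads of the library, as deposited by the authors. Whole reads could be recovered from them, 26568988 to 94878619 per library. Where a group had 2 libraries, values are the mean ± SD (n = 2). Of the 6 RNAs, Malat1, Neat1 and H19 passed the filter of 1 RPKM or more in at least 2 libraries that 11654 genes passed. Meg3, Rian and Mirg did not pass it and are described by their reads. Libraries were not strand-specific, so reads of antisense transcripts over these genes cannot be told apart from their own.

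Malat1 (transcript ENSMUST00000172812, 6982 bases) was the most abundant of the 6 per length in every input library. Its input RPKM were 256 and 256 after sham surgery, 364 and 392 after banding, 347 in CAG hearts without surgery and 352 in Tie2 hearts. It held a rank between 269 and 378 from the top among the 11654 genes in these libraries, although the fraction is labelled cytoplasmic. In TRAP the RPKM were 15.2 and 16.8 after sham surgery, 27.0 and 14.2 after banding, 7.22 in CAG hearts without surgery and 14.1 in Tie2 hearts. Every TRAP library lay below every input library. The share of all genes whose libraries separate without overlap was not counted, for this or any later statement of overlap.

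Neat1 (ENSMUST00000173672, 20771 bases) had input RPKM of 20.2 and 20.6 after sham surgery, 27.8 and 27.0 after banding, 21.6 in CAG hearts without surgery and 16.8 in Tie2 hearts. TRAP RPKM were 3.08 and 3.07 after sham surgery, 3.59 and 2.23 after banding, 0.939 in CAG hearts without surgery and 3.53 in Tie2 hearts. As for Malat1, the fractions did not overlap. The ratio of Malat1 to Neat1 RPKM ran from 12.5 to 21.0 over the input libraries and from 3.99 to 7.69 over the TRAP libraries.

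H19 (ENSMUST00000136359, 2286 bases) had input RPKM of 49.7 and 46.4 after sham surgery, 47.4 and 54.8 after banding and 77.1 in CAG hearts without surgery. Tie2 input held 228 RPKM of H19. TRAP RPKM were 4.79 and 4.33 after sham surgery, 2.73 and 6.46 after banding and 7.38 in CAG hearts without surgery, against 182 in Tie2 hearts. The Tie2 TRAP library therefore lay above every CAG library of either fraction, and among the CAG libraries TRAP and input did not overlap.

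Meg3 (ENSMUST00000146701, 14548 bases) reached 1.23 RPKM (901 reads) in Tie2 input, the only library in which any of the 3 Dlk1-Dio3 RNAs passed 1 RPKM. The other inputs held 0.208 and 0.193 RPKM after sham surgery (148 and 93 reads), 0.271 and 0.281 RPKM after banding (113 and 148 reads) and 0.642 RPKM (248 reads) in CAG hearts without surgery. In TRAP it was read at 0.0699 and 0.0953 RPKM after sham surgery (36 and 58 reads), 0.0761 and 0.0332 RPKM after banding (42 and 23 reads), 0.0130 RPKM (18 reads) in CAG hearts without surgery and 0.256 RPKM (144 reads) in Tie2 hearts. Within each pair of input and TRAP libraries, input was the higher.

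Rian (ENSMUST00000172379, 5248 bases) had 59 and 25 reads in sham input, 50 and 65 in band input, 46 in CAG input without surgery and 165 in Tie2 input, which is 0.144 to 0.625 RPKM. Its TRAP reads were 14 and 3 after sham surgery, 6 and 4 after banding, 10 in CAG hearts without surgery and 45 in Tie2 hearts, which is 0.0137 to 0.221 RPKM. Mirg (ENSMUST00000165209, 1906 bases) had 7 and 2 reads in sham input, 5 and 13 in band input, 11 in CAG input without surgery and 10 in Tie2 input. In TRAP it had 0 and 1 after sham surgery, 1 and 2 after banding, 12 in CAG hearts without surgery and 14 in Tie2 hearts. In CAG hearts without surgery this was 0.217 RPKM in input and 0.0664 in TRAP, since the TRAP library held more reads (94878619 against 26568988). The library with 0 reads of Mirg allows up to 3, or 0.0444 RPKM, by the 95% Poisson limit, which covers counting error only.

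**Figure D1:**
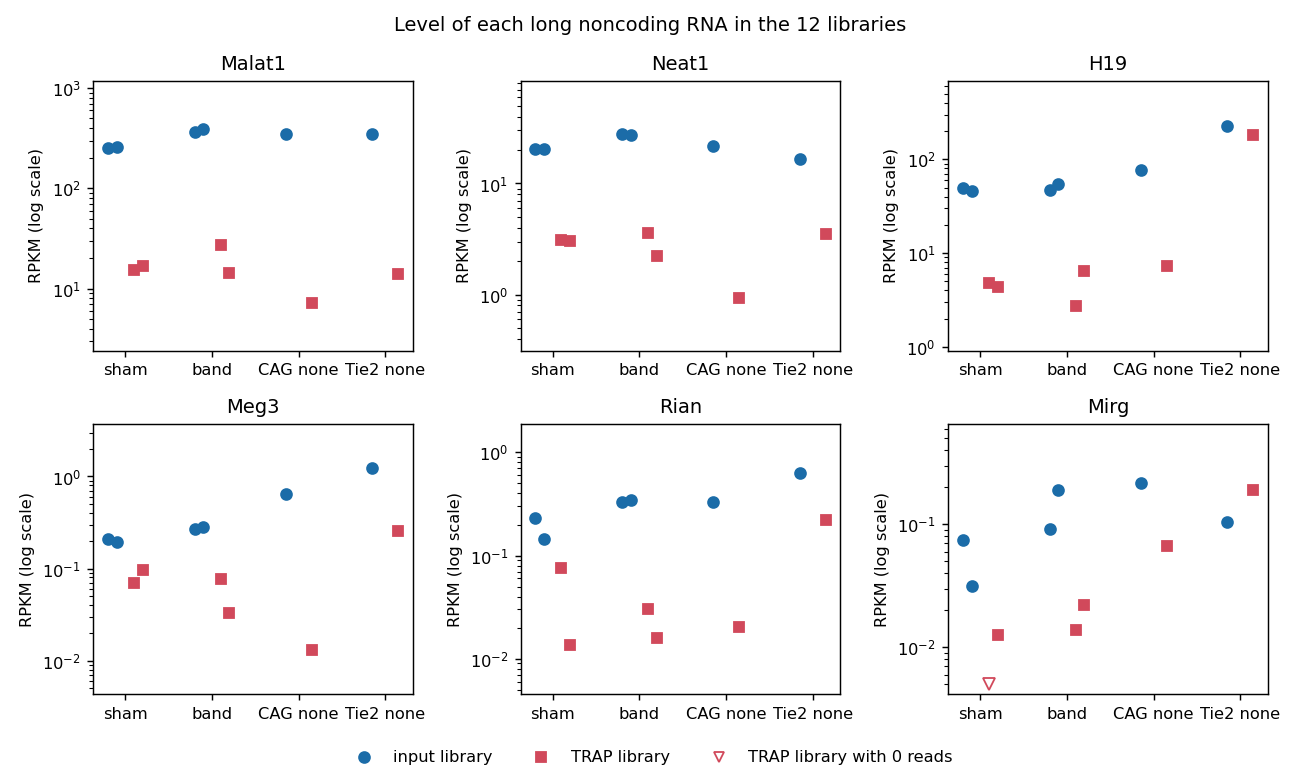
RPKM (log axis, a range of its own in each panel) of the 6 long noncoding RNAs, with circles for input and squares for TRAP libraries, by condition (sham and band with 2 libraries of each fraction, CAG and Tie2 hearts without surgery with 1). TRAP squares lie below the input circles of their condition in every panel except Mirg in Tie2 hearts (0.190 against 0.104 RPKM), and H19 in Tie2 TRAP, at 182 RPKM, stands above all CAG libraries.

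The first question was whether these RNAs came down with ribosomes in proportion to their level in input RNA. After sham surgery Malat1, Neat1 and H19 were all lower in TRAP. Malat1 fell by 3.92 on the log2(RPKM + 1) scale (SE 0.25, limma, adjusted p = 0.000198), from 256 ± 0.488 to 16.0 ± 1.10 RPKM. Neat1 fell by 2.39 (SE 0.16, limma, adjusted p = 0.000209), from 20.4 ± 0.246 to 3.08 ± 0.0080 RPKM. H19 fell by 3.14 (SE 0.28, limma, adjusted p = 0.000649), from 48.0 ± 2.36 to 4.56 ± 0.327 RPKM. Across all genes tested, 24.5% were called lower and 15.1% higher. Only 37 of the 11654 genes had a lower log2 fold change than Malat1, 50 than H19 and 71 than Neat1.

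After banding the same 3 RNAs were lower in TRAP. The estimate of spread behind this comparison is shared with the sham libraries. Malat1 went from 378 ± 20.4 to 20.6 ± 9.06 RPKM, a log2 difference of -4.20 (limma, adjusted p = 0.000112). For Neat1 the means were 27.4 ± 0.557 and 2.91 ± 0.965 RPKM, a difference of -2.89 (limma, adjusted p = 8.78e-05). For H19 they were 51.1 ± 5.24 and 4.60 ± 2.64 RPKM, a difference of -3.30 (limma, adjusted p = 0.00042). Of all genes tested, 26% were called lower and 16.6% higher after banding.

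The split of calls over all genes moved with the scaling. Lower genes made up 61.8% of the calls after sham surgery, against 47.4% after quantile normalization, 75.2% when mitochondrial, haemoglobin and the most abundant genes were left out of the scaling and 52.1% with the trend on transcript length removed. After banding the share was 61%, against 43.5%, 75.8% and 49.7% in the same order. The median log2 difference of all genes after banding went from -0.10 to 0.05, -0.21 and 0.0022. Malat1, Neat1 and H19 were called lower under each of these scalings, after both operations.

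The 3 RNAs of the Dlk1-Dio3 domain were tested on the recovered reads with limma's voom, over the 16326 genes with 10 or more reads in at least 2 libraries, where 21.4% of genes were called lower in TRAP after sham surgery and 23.5% after banding. Meg3 was lower after sham surgery (log2 difference -1.28, SE 0.33, limma, adjusted p = 0.0188) and after banding (-2.49, SE 0.36, limma, adjusted p = 0.00152). Rian was lower too (-2.50 after sham surgery, limma, adjusted p = 0.0242, and -3.84 after banding, limma, adjusted p = 0.00449). For Mirg the differences were -2.32 (limma, adjusted p = 0.105) and -2.58 (limma, adjusted p = 0.0382), on 9 input reads and 1 TRAP read after sham surgery and 18 and 3 after banding. The ratio of these summed reads per depth was 0.118 (exact 95% interval by counting error alone, 0.00269 to 0.85) and 0.126 (0.0238 to 0.432). The call of Mirg after banding was lost in each fit that left out 1 of the 8 sham and band libraries, and that of Meg3 after sham surgery without any 1 of the 4 sham libraries (adjusted p between 0.0614 and 0.124). Rian after sham surgery lost its call without sham input library 1 (adjusted p = 0.134) or sham TRAP library 2 (adjusted p = 0.18), and in the limma fit of RPKM with no filter (adjusted p = 0.0522).

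Pair by pair, TRAP was lower than input in 35 of 36 combinations of an RNA and a pair of libraries. The Mirg pairs among them rest on 0 to 14 reads per library. The median gene that passed the filter was also lower in TRAP in the 5 CAG pairs (log2 ratio -0.07 to -0.37), and higher in the Tie2 pair (0.62). Malat1, Neat1 and H19 were over 2-fold lower in 17 of 18 combinations, against 9.57% to 21.0% of genes in the CAG pairs and 17.0% in the Tie2 pair. Within the sham and band groups a pair joins libraries by their number, which the labels do not tie to the same RNA. Malat1 in TRAP stood at 5.96% and 6.55% of its input RPKM in the sham pairs, 7.43% and 3.62% in the band pairs, 2.08% in the CAG pair without surgery and 3.999% in the Tie2 pair. Neat1 stood at 15.2% and 14.9%, 12.9% and 8.23%, 4.34% and 21.0% in the same order. Malat1 thus kept a smaller share than Neat1 in all 6 pairs, with a gap in log2 ratio between 0.80 and 2.39.

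H19 stood at 9.64% and 9.34% of input in the sham pairs, 5.77% and 11.8% in the band pairs and 9.57% in the CAG pair without surgery. Its share was therefore between those of Malat1 and Neat1 in the sham pairs and outside them in both band pairs. In the Tie2 pair it was 79.7%. Meg3 ran from 2.03% in the CAG pair without surgery to 49.3% in a sham pair, with 20.8% in the Tie2 pair. Rian ran from 4.67% in a band pair to 35.4% in the Tie2 pair.

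**Figure D2:**
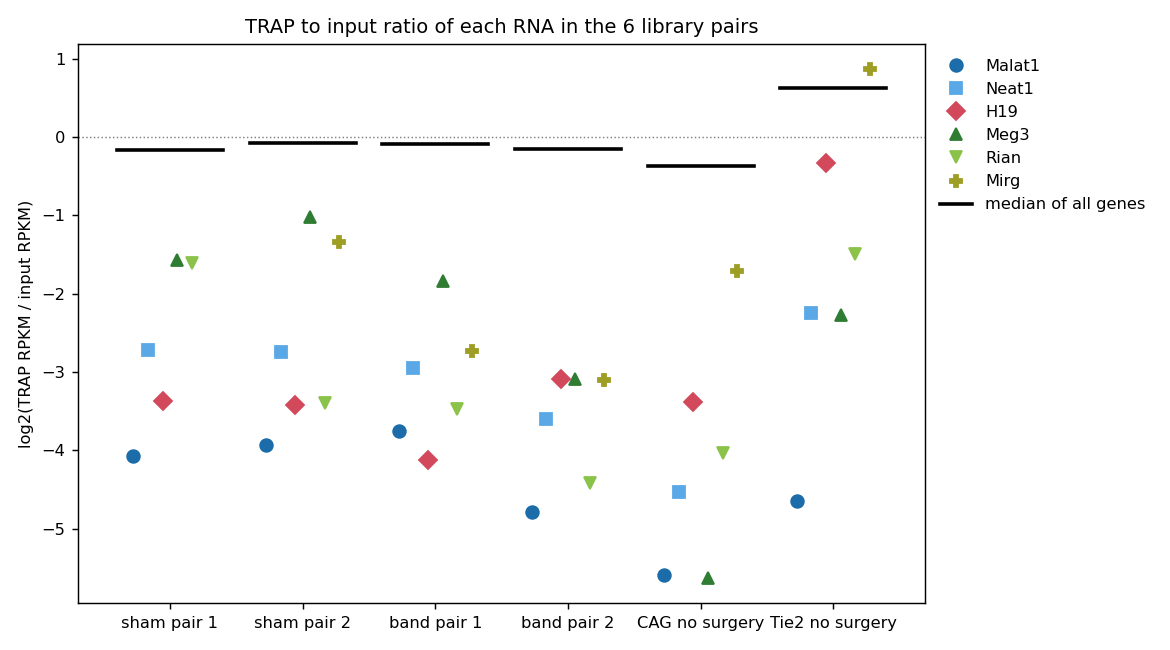
Log2 of TRAP RPKM over input RPKM (vertical axis) for the 6 RNAs in the 6 library pairs (horizontal axis), with a black bar at the median of the genes that passed the filter. The black bars lie near 0 in the CAG pairs and at 0.62 in the Tie2 pair. Malat1 lies between -3.75 and -5.59 in all 6 pairs, whereas H19 lies between -3.08 and -4.12 in the CAG pairs and at -0.33 in the Tie2 pair. Mirg has no point in the first sham pair, where its TRAP library held 0 reads.

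The CAG pair without surgery had no second library and no test. Malat1, Neat1 and H19 were each more than 2-fold lower in its TRAP library, as were 21% of 11570 genes. Malat1 was 48.1-fold lower, Neat1 23.0-fold and Meg3 49.2-fold (248 input and 18 TRAP reads). These were the lowest shares of the 6 pairs for these 3 RNAs. The summed RPKM of 15 mitochondrially encoded genes, which are translated on the organelle's own ribosomes, was also lowest relative to input in that pair, at a log2 ratio of -9.17, against -5.70 to -8.14 in the sham and band pairs. Whether this plays a part in the ratios of the 3 RNAs was not tested.

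In the Tie2 pair, Malat1 and Neat1 were again more than 2-fold lower in TRAP, and H19 was not. Of 11557 genes, 17% were over 2-fold lower. Counted from the lowest ratio, Malat1 had rank 52 among these genes, Neat1 rank 865 and H19 rank 3081, whereas H19 ranked between 73 and 199 in the 5 CAG pairs. The median log2 ratio of all genes was 0.62 in the Tie2 pair, and relative to it H19 stood at -0.95. By counting error alone, H19 in Tie2 TRAP was 0.782 to 0.813 of input (exact 95% interval of the ratio, 26237 and 16111 reads). With 1 pair, the difference of H19 between Tie2 and CAG pairs was not tested.

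Igf2, the growth factor gene next to H19, had 45.5 RPKM in the input and 293 RPKM in the TRAP library of Tie2 hearts. The CAG pair without surgery held 20.9 RPKM of Igf2 in input against 6.74 RPKM in TRAP. After sham surgery Igf2 was lower in TRAP (log2 difference -1.33, limma, adjusted p = 0.000818), and likewise after banding (-1.30, limma, adjusted p = 0.000639). The ratio of H19 to Igf2 RPKM was 2.67 to 5.01 in the 6 input libraries and 0.459 to 1.28 in the 6 TRAP libraries, without overlap. In Tie2 TRAP it was 0.621, inside the range of the CAG TRAP libraries, while the levels of both RNAs were far above theirs.

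The Tie2 TRAP library differed from its input in cell type markers. All 10 endothelial markers, 9 of 9 macrophage and leukocyte markers and all 10 fibroblast markers were higher in TRAP. Over all genes of that pair the median log2 ratio was 0.62, and 38.8% were over 2-fold higher in TRAP. The summed RPKM of these marker lists had log2 ratios of 3.19, 3.02 and 1.30, and that of 10 cardiomyocyte markers had -4.40. The defining cardiomyocyte markers were not at 0, with 3388 summed RPKM. In the CAG pair without surgery these log2 ratios were -0.19, -0.43, -1.26 and 0.39. Marker by marker, 1 of 10 endothelial, 0 of 9 macrophage and leukocyte, 0 of 10 fibroblast and 4 of 10 cardiomyocyte genes were higher in that TRAP library. The positive cardiomyocyte sum rests on abundant genes such as Myl2 (16958 RPKM in input and 32371 in TRAP). In the Tie2 TRAP library Dcn made up most of the fibroblast sum (372 of 682 RPKM) and Fabp4 most of the endothelial sum (10760 of 12820 RPKM). Of the fibroblast markers, Col1a1 (log2 ratio 0.16), Ddr2 (0.25) and Col1a2 (0.55) lay below the median of all genes in that pair. The Tie2 input also differed from CAG input without surgery, with mitochondrially encoded genes at 33755 against 145120 summed RPKM, and with more H19 (228 against 77.1 RPKM), Igf2 (45.5 against 20.9 RPKM) and Meg3 (1.23 against 0.642 RPKM). The part of these differences in the H19 ratio was not tested, and in such bulk RNA fewer cells of a type and less RNA per cell cannot be told apart.

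**Figure D3:**
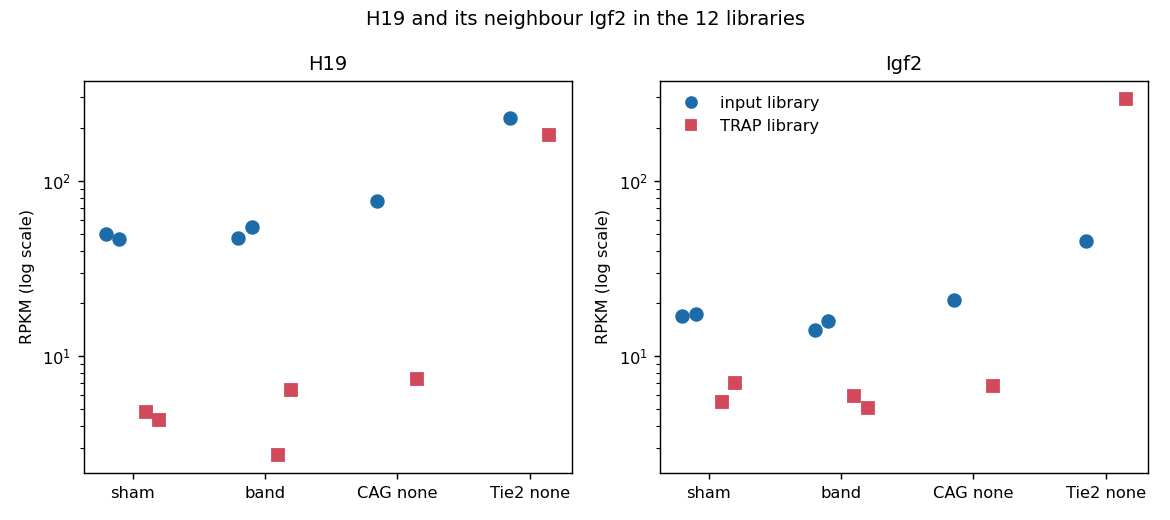
RPKM (log axis, shared by both panels) of H19 and Igf2 in input (circles) and TRAP (squares) libraries by condition. In the CAG libraries both RNAs are lower in TRAP. In the Tie2 pair H19 stands at 228 RPKM in input and 182 in TRAP, and Igf2 at 45.5 and 293.

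Banding was then set against sham surgery in input RNA. None of the 3 tested RNAs was called, against 4.08% of all genes called in either direction. Both band libraries lay above both sham libraries for Malat1 and for Neat1, an order that 2 libraries against 2 can take without any change. The log2 difference of Malat1 was 0.56 (95% interval -0.03 to 1.15, limma, adjusted p = 0.285) and that of Neat1 was 0.41 (0.04 to 0.78, limma, adjusted p = 0.211). For H19 the libraries overlapped, with a difference of 0.08 (-0.59 to 0.76, limma, adjusted p = 0.916). These intervals are not adjusted for the number of genes. They include no change for Malat1 and H19, and also a level of Malat1 up to 2.22-fold higher.

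The estimate of spread behind these p-values is shared with the TRAP libraries, and the 2 band TRAP libraries differed most from each other (median absolute log2 difference 0.20 over genes, against 0.08 to 0.11 in the other groups). Without band TRAP library 1, the same differences of Malat1 and Neat1 in input were called (limma, adjusted p = 0.00437 and 0.0103), and likewise without band TRAP library 2 (limma, adjusted p = 0.00449 and 0.0103). Of all genes, 13% and 12.9% were called in these fits. Meg3, Rian and Mirg had log2 differences of 0.46, 0.83 and 1.29 in input by voom, with adjusted p of 0.448, 0.39 and 0.417, where 2.52% of genes were called.

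In TRAP RNA, 3.77% of genes changed with banding and none of Malat1, Neat1 and H19 did. Their log2 differences were 0.28, -0.08 and -0.07 (limma, adjusted p = 0.614, 0.835 and 0.927). For all 3, 1 band TRAP library lay above both sham TRAP libraries and the other below both. Library 1 was the high one for Malat1 (27.0 RPKM) and Neat1 (3.59 RPKM) and the low one for H19 (2.73 RPKM). Library 1 also held 1725 summed RPKM of endothelial markers against 894 in library 2, and 1326 against 577 of mitochondrially encoded genes. Most of the endothelial sum was Fabp4 (1603 against 785 RPKM), and Tie1, Eng and Egfl7 were lower in library 1. The part of these differences in the spread of the 3 RNAs was not tested.

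Without band TRAP library 1, H19 in TRAP was called higher after banding (log2 difference 0.43, limma, adjusted p = 0.0428) and Neat1 lower (-0.34, limma, adjusted p = 0.0371). Without library 2, H19 was called lower (-0.57, limma, adjusted p = 0.0148) and Malat1 higher (0.72, limma, adjusted p = 0.00351). These fits called 14.3% of all genes without library 1 and 16.9% without library 2. A direction of the 3 RNAs with banding in TRAP thus rested on which library was used. Meg3, Rian and Mirg were not called in TRAP by voom (adjusted p = 0.394, 0.821 and 0.678), where 2.79% of genes were.

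A change with banding in the ratio of TRAP to input was called for 0 of 11654 genes, or 0%, by limma, with 557 at an unadjusted p under 0.05, and for 0 of 16326, or 0%, by voom. The log2 ratio was lower after banding by an estimate of -0.28 for Malat1 (95% interval -1.12 to 0.55), -0.49 for Neat1 (-1.01 to 0.03) and -0.16 for H19 (-1.11 to 0.79), none of which passed. By voom it was -1.21 for Meg3 (-2.33 to -0.10), -1.34 for Rian (-3.60 to 0.91) and -0.26 for Mirg (-3.17 to 2.65), each with an adjusted p of 0.988 or more. Without band TRAP library 1, the ratios of Malat1 (-0.72, limma, adjusted p = 0.0324) and Neat1 (-0.75, limma, adjusted p = 0.0239) were called lower after banding, and 197 genes in all, or 1.69%. Without library 2 it was called for none of the 3, and for 78 genes in all, or 0.669%.

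Other long noncoding RNAs were few at this level. Of 23 listed, 11 had a row and 4 passed the filter, and none was called after sham surgery (median log2 difference 0.04, against -0.09 over all genes). Gas5, a spliced host of small nucleolar RNAs, had a difference of 0.09 (adjusted p = 0.726), Dleu2 had 0.16 and Airn, whose reads cannot be told apart from those of Igf2r on the other strand where they overlap, had -0.01. Tug1 was the lowest, at -0.48 (limma, adjusted p = 0.174), and after banding it was called lower (-0.96, limma, adjusted p = 0.0226). In the CAG pair without surgery Tug1 held 3.23 RPKM in input and 0.167 in TRAP. It was the 1 of the 4 over 2-fold lower there, as were 21% of genes. In the Tie2 pair all 4 were over 2-fold higher in TRAP, as were 38.8% of 11557 genes, with Gas5 at 204 against 68.1 RPKM. Below the filter, Dnm3os was lower in TRAP by voom after sham surgery (-4.06, limma voom, adjusted p = 0.0064) and after banding (-2.11, limma voom, adjusted p = 0.0211). In that fit 21.4% and 23.5% of genes were lower, and Pvt1 and Xist were not called. The sham TRAP libraries held 0 and 0.00603 RPKM of Dnm3os.

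The mRNAs of proteins that make up paraspeckles were lower in TRAP for 10 of 19 tested after sham surgery and 11 of 19 after banding, and higher for none, with median log2 differences of -0.47 and -0.52. Of all genes, 24.5% and 26% were called lower. Under the 3 other scalings between 7 and 11 of the 19 were called lower after sham surgery and between 9 and 14 after banding, and 1, Nudt21, was called higher after sham surgery under quantile normalization. Among them Hnrnpm, an RNA-binding protein, was lower in both (-0.83, adjusted p = 0.00177, and -0.88, adjusted p = 0.00112, both limma). Nudt21, a cleavage factor subunit, had a difference of 0.53 (limma, adjusted p = 0.067) and Hnrnph3 one of 0.13 after sham surgery. Of 16 mRNAs for speckle and splicing proteins, 10 were lower after either operation and none higher (median -0.62 and -0.77), and between 8 and 12 were lower and none higher under the other scalings. Luc7l2, of the U1 particle, was lower by the most after sham surgery (-1.50, limma, adjusted p = 0.000637), and Pnn, of the splicing-dependent complex on mRNA, followed (-1.29, limma, adjusted p = 0.00603). These differences were smaller in size than those of Malat1 and Neat1 themselves.

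Markers of fibroblasts and of macrophages and leukocytes were also lower in CAG TRAP after sham surgery, for 8 of 10 and 7 of 8 tested, with medians of -0.88 and -0.78, where 24.5% of all genes were lower, and their part in the speckle and paraspeckle lists was not tested. All 5 erythroid and all 15 mitochondrially encoded genes tested were called lower too, with medians of -3.58 and -6.44. After banding these medians were -4.13 and -7.29, again with all genes of both lists called lower. The erythroid median after sham surgery was lower than that of Malat1, Neat1 and H19 (-3.14). In the Tie2 pair the medians of the log2 ratio were 0.09 for the paraspeckle list and 0.13 for the speckle list, and none of either list was over 2-fold lower, whereas Malat1 was 25.0-fold lower in that pair.

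Imprinted coding genes were counted next. The 9 tested on the list for the domains of these RNAs all lie in the region of H19 and Kcnq1ot1, since none of the listed genes of the Dlk1-Dio3 domain passed the filter. Of these 9, 1 was called lower and 1 higher after sham surgery (median -0.0012), and 2 and 2 after banding. Igf2 was the lower one, given above, and Kcnq1, a potassium channel of cardiomyocytes, was the higher one (0.31, limma, adjusted p = 0.0309). Its call after sham surgery was lost (adjusted p = 0.137) when mitochondrial, haemoglobin and the most abundant genes were left out of the scaling. After banding Cdkn1c, a cell cycle inhibitor, was also lower (-0.78, limma, adjusted p = 0.0111) and Mrpl23, a mitochondrial ribosomal protein, also higher (0.75, limma, adjusted p = 0.00411). Under the other scalings, between 1 and 4 of the 9 were lower and 0 or 1 higher after sham surgery. After banding 2 or 3 were lower and 2 or 3 higher. Of all genes, 24.5% were called lower and 15.1% higher after sham surgery, and 26% and 16.6% after banding. Of 16 imprinted coding genes elsewhere, 5 were lower and 1 higher after sham surgery, and 7 and 3 after banding. Under the other scalings between 4 and 6 were lower after sham surgery and between 4 and 10 after banding. The higher one after sham surgery was Snrpn, of the spliceosome, at 132 and 121 RPKM in sham TRAP against 67.2 and 62.5 RPKM in sham input (0.95, limma, adjusted p = 0.000859). The lowest was Dcn, a matrix proteoglycan also on the fibroblast list (-0.95, limma, adjusted p = 0.0186). In the comparison of banding with sham surgery, none of the 9 was called in either fraction. Of all genes, 4.08% were called in input and 3.77% in TRAP. Of the 16 elsewhere, Igf2r, a receptor that clears Igf2, was lower in input after banding (-0.44, limma, adjusted p = 0.0321), and Slc38a4, an amino acid transporter, was higher in TRAP (0.57, limma, adjusted p = 0.0346). Some imprinted coding genes below the filter were also lower in TRAP than in input by voom. Of all genes in that fit, 21.4% were lower after sham surgery and 23.5% after banding. After sham surgery Peg3 (-1.93, limma voom, adjusted p = 0.0148), Inpp5f (-1.62, adjusted p = 0.0102) and Ppp1r9a (-1.63, adjusted p = 0.0121) were called. They were lower after banding too, as were Dio3, Peg10, Tspan32 and Tnfrsf23. Mest and Asb4, among others, were not called after either operation.

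**Figure D4:**
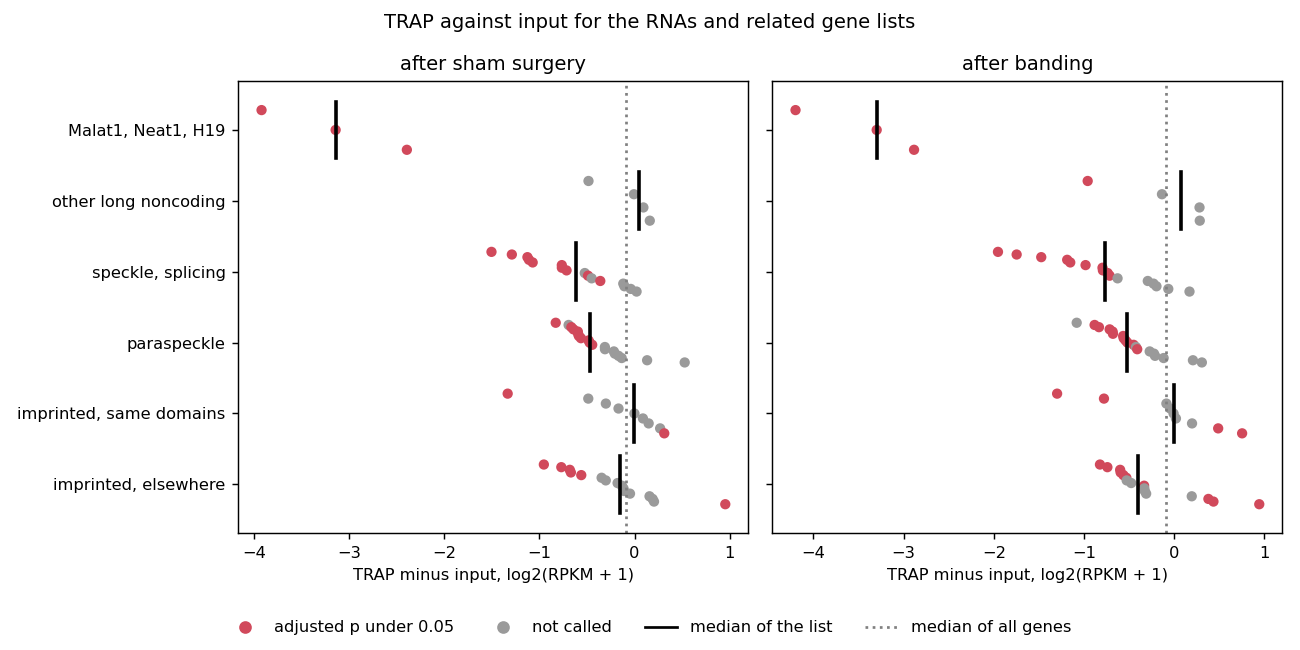
Difference TRAP minus input in log2(RPKM + 1) (horizontal axis) after sham surgery and after banding for Malat1, Neat1 and H19 and for the genes of 5 lists that passed the filter, 1 point per gene, red where the limma adjusted p was under 0.05. Black bars are list medians and the dotted line is the median of all genes. The 3 long noncoding RNAs lie between -2.39 and -4.20, to the left of every gene of the other lists shown. Erythroid and mitochondrially encoded genes, many of them as low or lower, are not shown.

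The genes most alike in level over the 12 libraries were taken by Pearson's r of log2(RPKM + 1), as a description without a test. The 12 points share the split into input and TRAP libraries. Malat1 was most like Syne1 (r = 0.99), a giant nuclear envelope protein, then A430104N18Rik (r = 0.99) and Ttn (r = 0.98), the titin gene. Neat1 was most like mt-Co2, mt-Rnr2 and mt-Nd1 (r = 0.99 each), which are encoded in mitochondria. Among the genes most like H19 were Fbxl18 and Myh10 (r = 0.99 each), at 0.442 to 3.79 RPKM. Malat1 and Neat1 had r = 0.99 with each other, and H19 had r = 0.66 with Malat1 and 0.67 with Neat1.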

How the data were processed

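Members and gene lists were chosen with earlier results of these data known. RPKM values were deposited by the authors. The submitters' processing notes name TopHat 1.4, HTSeq 0.5.3, CASAVA 1.8.2 and the build NCBIM37, without settings. All 12 columns were taken as libraries of the later of 2 deposits in the series of 53 samples, and 0 columns of other samples were used. RPKM times length was a whole number of reads within 0.02 reads for 233410 of 233410 positive values.

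Genes that reached 1 RPKM in 2 or more libraries were tested on log2(RPKM + 1), a scale that understates changes of low genes, with limma 3.58.1 in R 4.3.3, in 1 fit over 12 libraries (4 residual and 3.02 prior degrees of freedom), two-sided, with Benjamini-Hochberg adjustment over all genes and calls under 0.05. The script was tested on simulated data. The voom fit of Meg3, Rian and Mirg was chosen after seeing the data. Pair ratios and levels had no test. Every member is named, and of each other list at most the 2 highest and 2 lowest differences per comparison. Marker genes that make up much of a summed RPKM, or go against it, are named as well. Some listed genes below the filter are named from the voom fit, after their values were seen. For each tested member the 3 genes of highest Pearson's r over the libraries are named, of which 1 is not reported here. Labels do not say that libraries came from separate mice, so p-values measure the spread between libraries, which may be technical. Alternatives were another pseudocount, filters, scalings, a length trend, voom, a replicate block and leaving out libraries.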

Additional observations from a re-analysis of the deposited data

Results flagged for a closer look

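Mirg was lower in TRAP than in input in all 5 CAG pairs and higher in the Tie2 pair, where its ratio was 1.82. The difference was not tested. The Tie2 ratio rests on 10 input and 14 TRAP reads, and its exact 95% interval by counting error alone runs from 0.751 to 4.57.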

How the results depend on the processing

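The lower TRAP levels of Malat1, Neat1 and H19 kept their direction and their call in all 18 alternatives after sham surgery and all 18 after banding (Malat1 between -3.50 and -4.64 on the log2 scale over both). Over all genes, 4964 were called for TRAP against input after banding, and 3284 with a filter of 5 RPKM, where fewer genes were tested. Band against sham in TRAP gave 439 calls, and 207 with no filter. The change of the ratio gave 0 calls, and 2 with a pseudocount of 0.1 or with no filter. Leaving out 1 library moved the calls for TRAP against input between 1917 and 6388 after sham surgery and between 2779 and 6269 after banding. For band against sham they moved between 26 and 1511 in input and between 33 and 1971 in TRAP, and for the change of the ratio between 0 and 197. Of Malat1, Neat1 and H19, between 0 and 2 were then called in each of these 3 comparisons, and H19 in TRAP ranged from -0.57 to 0.43. The cause was not tested. With a replicate block, band against sham gave 273 calls in input and 259 in TRAP. Libraries with the same number did not deviate together (correlations of -0.43 to 0.11 between groups). Between input and TRAP the correlation was -0.17 after sham surgery and 0.03 after banding. With 1 difference per group, these values cannot decide whether the numbers pair samples. Malat1, Neat1 and H19 kept their calls under the block, which was not fitted for Meg3, Rian and Mirg. For Mirg, 0 to 14 reads per library limit any statement.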

Other observations

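Dio3, the deiodinase that inactivates thyroid hormone, lies at the far end of the imprinted domain of Meg3, Rian and Mirg and did not pass the filter on RPKM. It is named here after its values were seen. Its input RPKM were 0.0302 and 0.0149 after sham surgery (3 reads and 1 read) against 0.878 and 0.722 after banding (51 and 53 reads). Its TRAP RPKM were 0 and 0.0118 after sham surgery (0 reads and 1 read) against 0.403 and 0.228 after banding (31 and 22 reads). In both fractions the band libraries lay above all sham libraries. On the recovered reads, Dio3 was higher after banding in input (log2 difference 4.79, 95% interval 3.18 to 6.40, limma voom, adjusted p = 0.0134) and in TRAP (4.76, 2.72 to 6.81, limma voom, adjusted p = 0.0334). These calls were not checked by leaving out libraries. By counting error alone, the summed reads per depth were 32.9-fold higher in input (exact 95% interval 12.5 to 122.9) and 47.9-fold higher in TRAP (8.23 to 1925). Whether Dio3 and Meg3 differ in their change with banding was not tested.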
